A study of Mus musculus with 4 samples.

Results

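The integrated stress response and the unfolded protein response were followed in this series through 44 listed genes, 31 of them of the ATF4 type and 13 of the endoplasmic reticulum (ER). The members were taken from a list by gene symbol, and each was represented by its brightest probe set, judged by the mean of the 4 arrays. A probe set was found for 43 of the 44 among the 18193 genes of the table. Gdf15 was not analysed here. The series compared cells of the mouse line SVEC4-10, an SV40-transformed endothelial line, on 4 arrays of total RNA with 1 array per group. Those on the first array were untreated, those on the second carried the insert-free lentiviral vector, and those on the other 2 carried the same pLENTI6/Block-iT vector expressing a short hairpin RNA, on one array anti-Mical2 and on the other anti-Mical3. The labels name selection with blasticidin for the transduced cells, and every array held a pool of 3 biological replicates. Pooling hides the spread between replicates, so no test was possible, no p-value is given, and in bulk RNA fewer cells with a transcript and less of it per cell cannot be told apart. In place of a test, a gene was called by size, when 2 levels lay 1 or more apart in log2 (2-fold) and the higher of them reached a floor of 5.41, which is the median over the full table. All levels are log2 expression levels made by the authors with RMA. Of the 43 members 42 reached the floor on some array, and Slc7a3, a transporter of cationic amino acids, did not (4.45 to 5.12).

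Before the members, the targeted genes were read as a check of the labels. Levels here and below are listed in the order untreated array, vector array, array labelled Mical2 knock-down, array labelled Mical3 knock-down, unless stated otherwise. The 2 probe sets of Mical2 read 5.33, 4.64, 5.53 and 6.0, and 5.6, 5.14, 5.53 and 6.08. Mical3 read 7.39, 7.29, 6.83 and 7.24. Neither gene was lowest on the array of its own hairpin. Mical2 lay near the floor on all 4 arrays, at most 0.67 above it, so its probe sets could show little of a fall, and by both of them the vector array was lowest. Mical3, which was above the floor, was lowest on the array labelled Mical2. These levels do not bear out the labels, and those of Mical2 are too dim for a firm check of them. The arrays are therefore named by their labels throughout (the array labelled Mical2, the array labelled Mical3, the array labelled insert-free vector, called the vector array for short), and every direction is a difference between labelled arrays. Of 10 endothelial markers 7 lay below the floor on all 4 arrays, among them Pecam1, Cdh5, Tek, Tie1 and Vwf, and Kdr, Eng and Esam reached it. A difference between 2 arrays was also compared between 2 probe sets of the same gene. This spread holds the noise of both probe sets and leaves out variation between cultures, so it is not the error of 1 difference. Over 3242 genes its standard deviation was 0.40 for the difference of the vector from the untreated array and 0.38 to 0.58 for the other pairs of arrays.

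As background, the integrated stress response starts when a kinase phosphorylates the initiation factor eIF2, which slows general translation and lets the existing messenger RNA of ATF4 be translated. ATF4 protein then induces genes of amino acid synthesis and uptake, tRNA charging and redox balance, and, with prolonged stress, CHOP (the product of Ddit3) and its targets. Unfolded protein in the ER activates the kinase PERK, which feeds into the same route, and also IRE1, which splices Xbp1 messenger RNA, and ATF6, and these induce ER chaperones and the degradation of misfolded ER proteins (ERAD). Endothelial cells secrete matrix and clotting proteins, which are folded in the ER.

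The array labelled insert-free vector stood apart for some of the ATF4-type members. Ddit3, Trib3, Ppp1r15a, Chac1, Nupr1 and Sesn2 were called higher there than on the untreated array, between 2.14-fold and 4.17-fold, and so was Herpud1 of the ER members. That made 6 of 30 ATF4-type and 1 of 13 ER members, against 3.26% of the 11849 genes that could be called. No member was called lower, against 2.57% of all genes. The same 7 members were higher on the vector array than on each of the other 3 arrays by at least 1, which held for 1.75% of the 12166 genes that reached the floor, and none was lower than on each by as much (1.05% of all genes). For these 7 the other 3 arrays lay within 0.18 to 0.74 of each other, while the vector array exceeded the highest of them by 1.10 to 2.06. An excess of at least 1 follows from how the 7 were picked, and this comparison with all 3 was added after seeing the data.

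**Figure D1:**
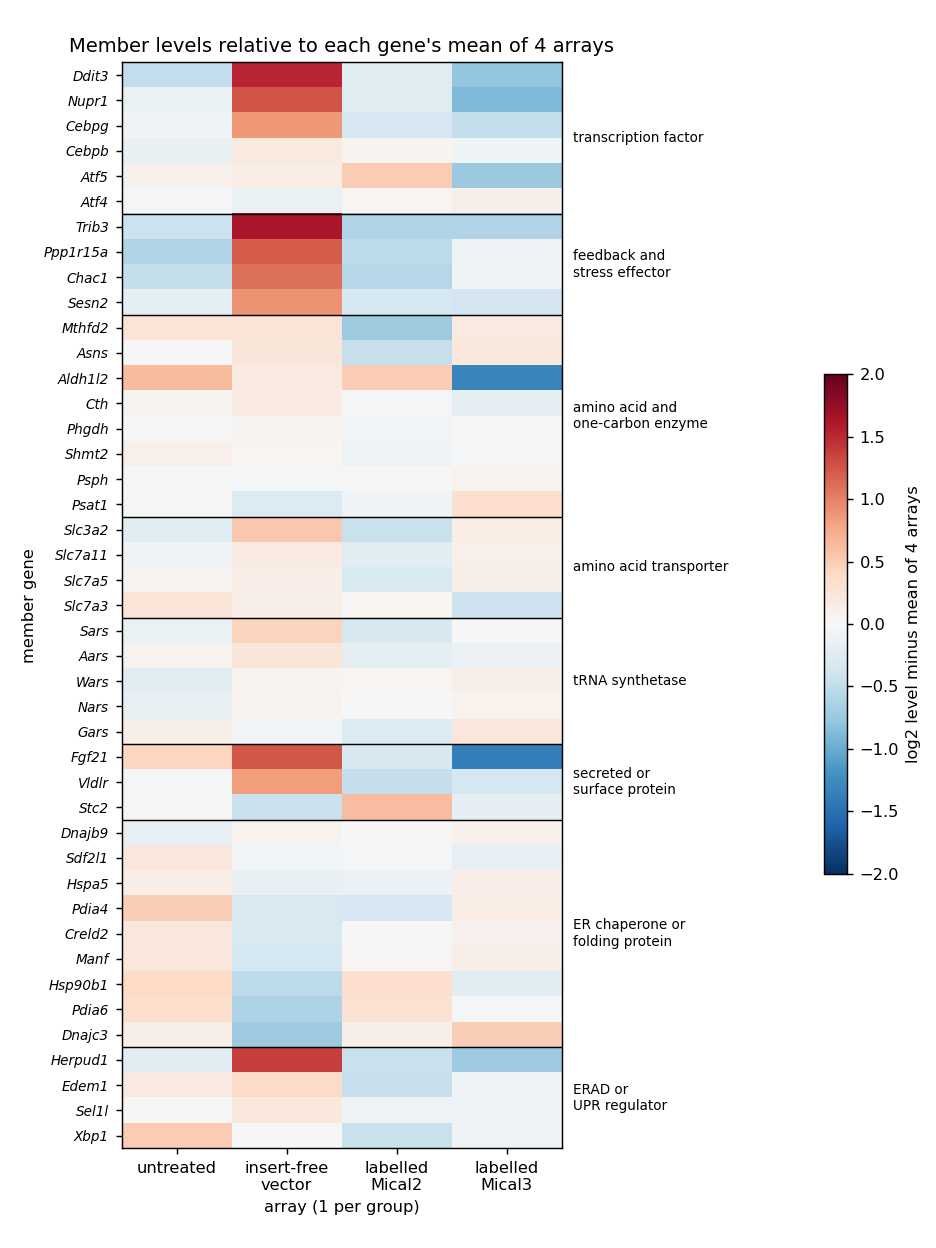
Heat map of the 43 members with a probe set (rows, grouped by role) on the 4 arrays (columns, 1 array per group). Colour gives the log2 level minus the gene's own mean of the 4 arrays, red above and blue below it. The darkest red cells lie in the vector column, at Trib3, Ddit3, Herpud1, Nupr1 and Fgf21, while the ER chaperones of that column are pale to blue.

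Among the transcription factors, Atf4 itself did not stand out. It read 13.28, 13.17, 13.34 and 13.41, a range of 0.24, its second probe set read 11.90, 12.24, 12.10 and 12.08, and another stayed below the floor. The 4 arrays were thus close together for Atf4, with the vector array lowest by the first probe set and highest by the second. Ddit3, which encodes the pro-apoptotic factor CHOP, read 11.06, 13.08, 11.31 and 10.78. The vector array was the high one, and the other 3 lay within 0.53. The difference from the untreated array was 2.02 (4.06-fold), and a second probe set gave 1.10 (6.96, 8.06, 6.93 and 6.39). Nupr1, a small stress-induced chromatin protein, read 11.28, 12.68, 11.18 and 10.54. Again the vector array was highest, by 1.40 over the untreated array (2.64-fold), and the array labelled Mical3 was lowest. Its second probe set repeated the order of the vector and the untreated array with 12.50 and 11.05. Cebpg, a partner with which ATF4 forms dimers, read 9.52, 10.46, 9.26 and 9.12. The vector array was highest for Cebpg too, but its difference of 0.94 from the untreated array missed the size rule, and its other 2 probe sets gave 0.34 and 0.39. Cebpb, another partner, stayed between 12.41 and 12.75. Atf5, a relative of ATF4, had a different pattern with 10.90, 10.96, 11.31 and 10.07, in which the array labelled Mical3 was low and the other 3 were within 0.41.

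All 4 feedback and stress effectors were called higher on the vector array, against 3.26% of all genes. The roles, however, were chosen with earlier results of these data known. Trib3, a pseudokinase that CHOP and ATF4 induce and that restrains ATF4, read 10.06, 12.12, 9.88 and 9.89. The other 3 arrays differed by no more than 0.18, and the vector array lay 2.06 above the untreated array (4.17-fold). A second probe set gave 9.30, 11.40, 9.09 and 9.18. Ppp1r15a encodes GADD34, the subunit that directs dephosphorylation of eIF2, and read 8.68, 10.49, 8.76 and 9.18. That placed the vector array 1.81 (3.51-fold) above the untreated array, with the array labelled Mical3 next. Chac1, an enzyme that degrades glutathione, read 10.19, 11.77, 10.10 and 10.60, in the same order at the top. Its difference was 1.58 (2.99-fold). Sesn2, which holds back growth signalling by mTORC1, read 8.39, 9.49, 8.27 and 8.21, with the vector array 1.10 (2.14-fold) above the untreated array and the other 3 within 0.18. By its second probe set the difference was 1.52. Ppp1r15a and Chac1 had no second probe set, and for the other 5 called members the second probe set also had the vector array highest, with differences of 1.10 to 2.10.

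**Figure D2:**
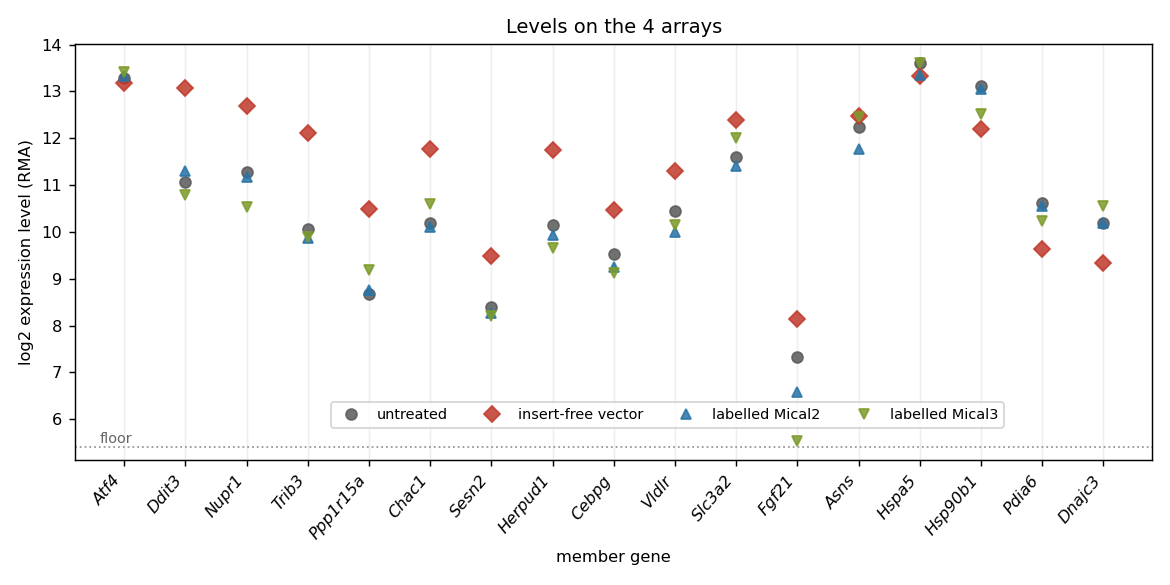
Log2 expression levels (vertical axis, RMA) of 17 members (horizontal axis) on the 4 arrays, 1 marker per array. The dotted line marks the floor of 5.41. From Ddit3 to Fgf21 the vector array (red diamonds) is the highest of the 4, for Atf4 all markers nearly coincide, and for Hsp90b1, Pdia6 and Dnajc3 the vector array is the lowest.

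The metabolic members gave no call between the vector and the untreated array, where 3.26% of all genes were called higher and 2.57% lower. At such shares so few genes could well give no call. For the 8 enzymes of amino acid and one-carbon metabolism the differences ran from -0.45 to 0.24, with a median of -0.02. Asns, asparagine synthetase and a classic ATF4 target, read 12.24, 12.48, 11.78 and 12.45, with the array labelled Mical2 lowest and the other 3 within 0.24. The serine synthesis enzymes Phgdh and Psph varied by 0.12 each over the 4 arrays, and Psat1 of the same pathway read 12.55, 12.25, 12.45 and 12.87. Shmt2, which passes a carbon unit from serine to folate in mitochondria, varied by 0.20. Mthfd2, the next mitochondrial folate enzyme, read 11.52, 11.50, 10.53 and 11.43. On the array labelled Mical2 it was 0.97 below the vector and 0.99 below the untreated level, just short of the size rule, and its second probe set had the same lowest array (10.66, 10.93, 10.03 and 10.84). Cth, the enzyme that makes cysteine from cystathionine, stayed between 9.59 and 9.97.

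Of the transporters, Slc3a2, the heavy chain shared by several amino acid exchangers, read 11.61, 12.40, 11.41 and 12.01. Its vector level was highest, 0.79 above the untreated array, and was not called. Slc7a5, the light chain that carries leucine, read 11.61, 11.69, 11.24 and 11.66, and Slc7a11, the cystine light chain, was near the floor with 5.88, 6.13, 5.75 and 6.06. By these probe sets neither separated the vector from the untreated array by more than 0.25, and a dimmer probe set of Slc7a11 gave 0.72. The 5 tRNA synthetases (Aars, Wars, Sars, Nars and Gars) differed by -0.17 to 0.57 between these 2 arrays, with a median of 0.21. Sars, for serine, had the largest range of the 5, with 11.27, 11.84, 11.08 and 11.40.

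Among secreted and surface proteins, the receptor gene Vldlr read 10.45, 11.31, 10.00 and 10.14. The vector array was highest by all 6 of its probe sets, with differences from the untreated array of 0.86 by the brightest and of 0.49 to 1.21 by the others. Fgf21, a hormone induced by ATF4, read 7.33, 8.14, 6.58 and 5.53 and so had 4 well separated levels. Its highest level, on the vector array, was only 0.81 above the untreated array. Stc2, a secreted glycoprotein induced by ER stress, ran the other way with 6.48, 6.02, 7.07 and 6.27, its lowest level being on the vector array by its brightest probe set, though not by its second (5.74, 5.78, 5.89 and 5.31).

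Over all 30 measured ATF4-type members the median difference of the vector from the untreated array was 0.22, while that over all genes reaching the floor was 0.03. Of the 4 arrays the vector array was the highest for 18 of the 30, where 34.4% of all genes had their highest level on it. It was the lowest for 4 of the 30 (26.9% of all genes).

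The ER chaperones were on the opposite side. Of the 9 ER chaperones and folding proteins 8 were below the untreated level on the vector array, with differences of -0.98 to 0.24 and a median of -0.57. For 6 of the 9 the vector array was the lowest of the 4. Of all 12166 genes reaching the floor 5520 were below, with a median of 0.03, and 26.9% were lowest there. None of the 9 passed the size rule between these arrays. As 5.83% of all genes passed it, 9 genes could well give no call. Pdia6, a disulfide isomerase, read 10.62, 9.64, 10.56 and 10.23. The vector level lay 0.98 below the untreated level, just short of 2-fold, and the array labelled Mical3 came next. Hsp90b1, the ER member of the HSP90 family, read 13.11, 12.19, 13.05 and 12.51, also with the vector array lowest and that labelled Mical3 next. Its second probe set read 12.88, 11.72, 12.58 and 11.64, so that the array labelled Mical3 was then lowest and the vector array differed from the untreated array by -1.16. Dnajc3, an ER co-chaperone that also inhibits eIF2 kinases, read 10.19, 9.34, 10.19 and 10.56. The untreated array and that labelled Mical2 had the same level, and the vector array was 0.85 below them. Its 4 other probe sets gave differences of -0.85 to -0.63 in the same direction.

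Hspa5, which encodes BiP, the main ER chaperone and the usual gauge of the unfolded protein response, varied by 0.28. It read 13.60, 13.33, 13.36 and 13.61, and its difference on the vector array was -0.27, with -0.73 and -0.07 by its other probe sets. Pdia4, another disulfide isomerase, read 10.31, 9.51, 9.48 and 9.96, low on the vector array and on that labelled Mical2 alike. Creld2 (11.30, 10.76, 11.06 and 11.16) and Manf (12.64, 12.07, 12.44 and 12.53), secreted ER stress proteins, were both lowest on the vector array, by 0.54 and 0.57 below the untreated level. The remaining 2 were Sdf2l1, between 10.44 and 10.84, and Dnajb9, a co-chaperone that IRE1 and XBP1 induce, between 8.96 and 9.22.

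Herpud1 was the exception among the ER members. It encodes a membrane protein of the ERAD machinery and read 10.14, 11.76, 9.93 and 9.65. It stood out on the vector array, 1.62 (3.07-fold) above the untreated array, and the other 3 lay within 0.49. A second probe set gave 9.26, 10.58, 9.18 and 8.85. The ERAD genes Edem1 (10.24, 10.44, 9.59 and 9.95) and Sel1l (9.89, 10.11, 9.82 and 9.80) differed by 0.20 and 0.22 between the vector and the untreated array. Their other probe sets did not keep this sign, with -0.19 for Edem1 and -0.37 to 0.27 for Sel1l. Xbp1, the factor that IRE1 splices, read 12.22, 11.73, 11.28 and 11.65, highest on the untreated array by all 4 of its probe sets. The spliced and unspliced forms were not told apart here.

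Taking both arms over all 4 arrays, each gene was centred on its own mean of the 4. On the vector array the median was 0.18 over the ATF4-type members and -0.14 over the ER members, a difference of 0.33. On the untreated array the medians were -0.02 and 0.22, a difference of -0.24. The array labelled Mical2 gave -0.22 and -0.02 (a difference of -0.20) and that labelled Mical3 gave -0.08 and -0.03 (a difference of -0.05). The vector array was thus the 1 array on which the ATF4-type median lay above the ER median. Centring ties the 4 values of a gene together, so the signs on the other arrays are not separate results, and the -0.05 is small. With the probe set of highest variance per gene the differences were 0.52 on the vector array and -0.20 on that labelled Mical3. These medians hide the division within the ATF4-type members described above, which follows roles chosen with earlier results of these data known.

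**Figure D3:**
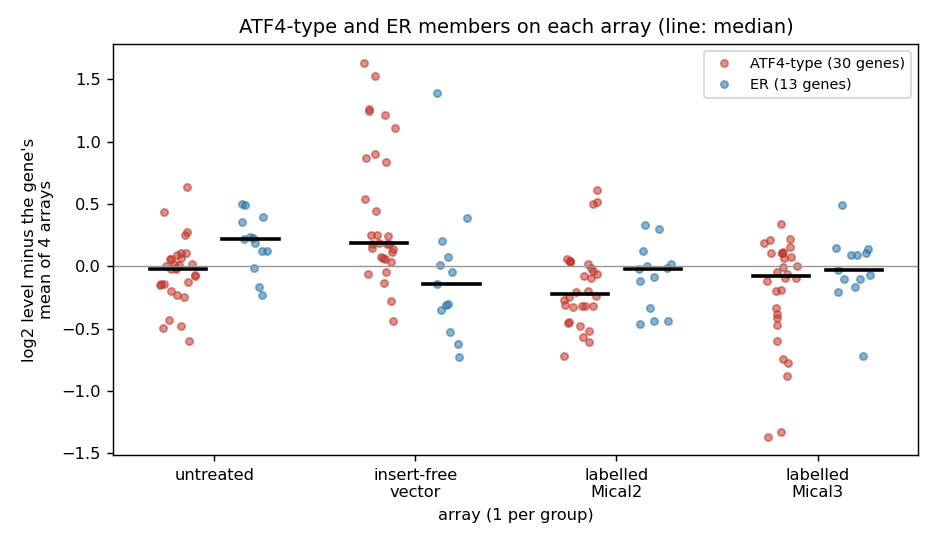
Log2 level minus the gene's own mean of the 4 arrays (vertical axis) for 30 ATF4-type members (red) and 13 ER members (blue) on each array (horizontal axis). Points are genes and black lines are medians. On the vector array a group of ATF4-type genes lies above 0.8 while most lie near 0, and the single high ER point is Herpud1.

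Promoter windows are shown for 3 members that were called higher on the vector array and for 3 ER chaperones, to set the known response elements of both arms side by side. They come from a RefSeq table of build GRCm38.p6 that gives 300 bases per start site, from 250 before it to 50 after it, and 37 of the 44 listed genes had a window. Searched on both strands were the core of the C/EBP-ATF response element that ATF4 binds (TGATGNAA), the ER stress response element ERSE (CCAAT, 9 bases of any kind, CCACG), its short form ERSE-II (ATTGG, 1 base of any kind, CCACG) and the XBP1 element UPRE (TGACGTGG). Capitals mark the matches, none of which overlap, and each window runs 5′ to 3′ on the gene's strand.
Chac1 (chr2:119350992-119351291, plus strand): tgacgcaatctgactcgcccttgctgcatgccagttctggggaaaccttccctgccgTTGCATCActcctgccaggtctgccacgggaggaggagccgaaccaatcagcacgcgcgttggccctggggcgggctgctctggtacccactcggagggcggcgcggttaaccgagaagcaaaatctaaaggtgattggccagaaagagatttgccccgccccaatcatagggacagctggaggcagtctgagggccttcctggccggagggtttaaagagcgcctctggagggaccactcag
Nupr1 (chr7:126625421-126625720, minus strand): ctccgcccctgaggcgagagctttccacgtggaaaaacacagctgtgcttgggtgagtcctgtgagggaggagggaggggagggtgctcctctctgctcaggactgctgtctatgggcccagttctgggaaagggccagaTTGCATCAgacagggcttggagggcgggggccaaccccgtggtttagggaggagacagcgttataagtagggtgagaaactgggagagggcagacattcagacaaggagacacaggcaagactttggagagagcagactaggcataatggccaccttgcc
Herpud1 (chr8:94386179-94386478, plus strand): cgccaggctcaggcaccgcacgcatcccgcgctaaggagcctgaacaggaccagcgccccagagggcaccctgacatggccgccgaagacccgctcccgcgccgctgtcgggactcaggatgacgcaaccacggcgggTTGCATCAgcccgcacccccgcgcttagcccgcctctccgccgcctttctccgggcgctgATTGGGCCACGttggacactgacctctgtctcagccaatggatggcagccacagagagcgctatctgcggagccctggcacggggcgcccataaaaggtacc
Hspa5 (chr2:34771840-34772139, plus strand): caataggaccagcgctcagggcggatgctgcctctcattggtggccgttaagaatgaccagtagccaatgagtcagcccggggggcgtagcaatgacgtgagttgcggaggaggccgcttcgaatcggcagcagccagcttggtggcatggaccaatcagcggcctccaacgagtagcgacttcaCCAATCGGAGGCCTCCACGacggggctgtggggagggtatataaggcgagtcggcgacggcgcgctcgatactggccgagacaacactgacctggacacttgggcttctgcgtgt
Hsp90b1 (chr10:86705395-86705694, minus strand): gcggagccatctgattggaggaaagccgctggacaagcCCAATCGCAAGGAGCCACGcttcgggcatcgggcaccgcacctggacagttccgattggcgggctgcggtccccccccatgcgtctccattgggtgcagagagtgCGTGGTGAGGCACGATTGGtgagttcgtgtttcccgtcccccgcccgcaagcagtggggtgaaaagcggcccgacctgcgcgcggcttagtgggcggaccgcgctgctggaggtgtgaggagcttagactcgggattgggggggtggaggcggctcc
Pdia6 (chr12:17266339-17266638, plus strand): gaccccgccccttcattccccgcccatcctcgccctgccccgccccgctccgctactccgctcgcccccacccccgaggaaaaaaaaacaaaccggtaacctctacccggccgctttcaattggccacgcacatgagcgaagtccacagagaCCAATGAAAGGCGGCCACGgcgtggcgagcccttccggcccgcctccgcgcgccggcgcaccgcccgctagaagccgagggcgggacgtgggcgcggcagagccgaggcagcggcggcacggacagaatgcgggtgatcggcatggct

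The ATF4 core was present in 9 of the 25 ATF4-type genes with a window and in 1 of the 12 ER genes, where 3.97% of all 32851 windows hold it. The 9 were Aars, Asns, Chac1, Fgf21, Gars, Nupr1, Slc7a11, Trib3 and Vldlr, and the ER gene was Herpud1. In Chac1, Nupr1 and Herpud1 the match lies on the opposite strand, its first base 193, 110 and 112 bases before the start site. The ERSE was present in 5 of the 12 ER genes (Creld2, Dnajc3, Hsp90b1, Hspa5 and Pdia6) and in 0 of the 25 ATF4-type genes, where 0.119% of all windows hold it. Herpud1 held the ERSE-II, found in 0.0365% of all windows, and no ERSE. The UPRE, found in 0.676% of windows, was in none of these 37 genes. Herpud1 was the 1 ER gene whose window held the ATF4 core and also the 1 ER gene called higher on the vector array. By their brightest probe sets the 5 with an ERSE were at their lowest there, by 0.27 to 0.98 below the untreated level, with no call. Of the ER chaperones not among these 5, Pdia4, Manf and Sdf2l1 differed by -0.80, -0.57 and -0.28 and Dnajb9 by 0.24. A part of these elements in the levels was not tested. Of the members with both a window and a probe set, 4 of the 10 with the core were called higher on the vector array (Trib3, Chac1, Nupr1 and Herpud1), and 3 of the 26 without it (Ddit3, Ppp1r15a and Sesn2), a description with no test. Asns, Aars and Gars hold the core and differed by 0.24, 0.18 and -0.17.

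Other genes of the pathway, outside the 44, were counted by list. Of 19 other ATF4 targets 2 were called higher on the vector than on the untreated array and none lower, against 3.26% and 2.57% of all genes. Atf3, a stress-induced transcription factor, read 7.82, 10.31, 8.31 and 8.37, a difference of 2.49 (5.62-fold), with the vector array high and the other 3 between 7.82 and 8.37. Gpt2, an alanine aminotransferase, read 10.71, 11.91, 10.15 and 9.59, and its 3 other probe sets gave differences of 0.18 to 0.84 where the first gave 1.20. The list's median difference was 0.26 (0.03 over all genes reaching the floor), and the vector array was the highest for 13 of the 19 (34.4% of all genes). Of 14 other tRNA synthetases none was called in any of these comparisons, where at most 3.81% of all genes were called in 1 direction. Of 16 sensors, eIF2 kinases and eIF2B subunits Ern1, which encodes IRE1, was called higher on the vector array (9.05, 10.18, 9.24 and 9.46). Of its other 4 probe sets the brightest differed by 0.27 (6.6, 6.87, 6.84 and 7.37), and the others stayed below the floor on every array and so could show little. Eif2ak2, the interferon-induced eIF2 kinase PKR, read 9.69, 9.49, 9.06 and 9.91, and by none of its 3 probe sets was the vector array above the untreated array. Eif2ak3, which encodes PERK, read 8.91, 8.35, 8.29 and 8.6. Of 18 other ER chaperones and folding enzymes and of 18 ERAD and translocation genes none was called on the vector array. In either direction 5.83% of all genes were called, so lists this short could well give no call. Their median differences were -0.26 and -0.24, with 0.03 over all genes. Pdia3, a disulfide isomerase for glycoproteins, had the lowest value relative to the untreated array (12.61, 11.65, 12.63 and 12.37, a difference of -0.96).

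**Figure D4:**
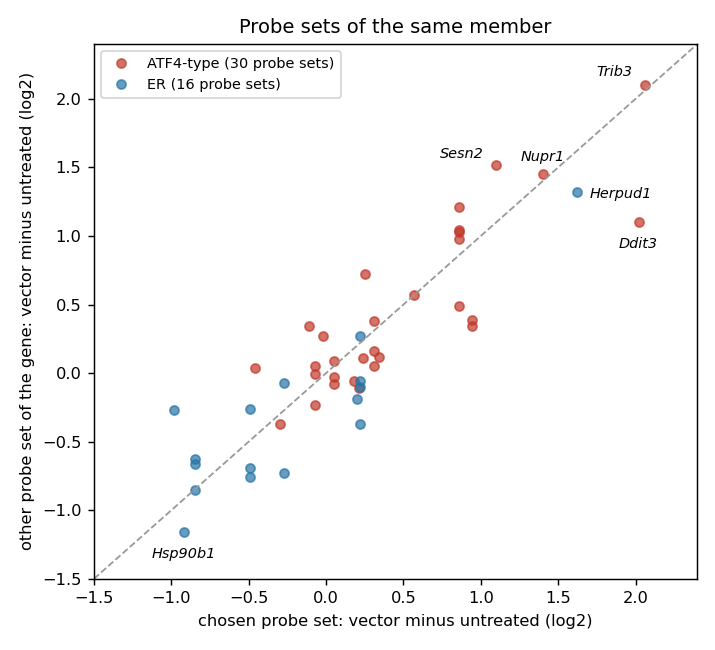
Difference of the vector from the untreated array (log2) by the chosen probe set of a member (horizontal axis) and by each other probe set of the same member that reached the floor (vertical axis). Red points are 30 probe sets of ATF4-type members and blue points 16 of ER members, and the dashed line marks equal values. The second probe sets of Trib3, Ddit3, Nupr1, Sesn2 and Herpud1 lie between 1.10 and 2.10, and that of Hsp90b1 lies at -1.16.

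Markers of other cell types moved with the vector array as well. Of 8 fibroblast and mural markers 6 were called lower there than on the untreated array (Pdgfra, Pdgfrb, Col1a1, Col1a2, Dcn and Acta2), and Lum and Rgs5 were below the floor on all 4. Their summed level on the linear scale was 52064, 10147, 43474 and 32808. Of 4 epithelial markers the keratin genes Krt8 and Krt18 were called lower, with summed levels of 514, 221, 564 and 635 and Cdh1 below the floor throughout. Of 3 leukocyte markers Cd68 was called higher (5.93, 8.0, 6.16 and 6.88), with summed levels of 136, 327, 144 and 187, while Ptprc stayed below the floor. The listed heat shock genes of the cytosol were too few to show whether they shared the stress pattern. Of 5, Hspa1a was below the floor on all 4 arrays, and none was called higher, against 3.26% of all genes. Hsph1 was called lower (11.66, 10.61, 10.95 and 11.13), against 2.57% of all genes. The part of these differences in the members' levels was not tested.

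Neither arm was called on the array labelled Mical2. Against the vector and the untreated array together, 0 of 43 members were higher and 0 lower, where 0.977% and 1.75% of the 12072 genes that could be called were. This comparison and that of the array labelled Mical3 share both control arrays. The median difference of the ATF4-type members was -0.41 relative to the vector array and -0.12 relative to the untreated array, and that of the ER members 0.03 and -0.21. The nearest to a call, by the smaller of the 2 differences, were Mthfd2, given above, Fgf21 (1.56 below the vector and 0.75 below the untreated level) and Edem1 (0.85 and 0.65 below). Of the pathway lists, Fkbp11, an ER prolyl isomerase, was called lower (9.74, 9.77, 5.47 and 9.47). By its other 2 probe sets the difference from the vector array was -0.52 and 0.23. The first of these stayed below the floor and the second reached no more than 5.92, so both could show little of a fall. Of the 4 lymphatic endothelial markers Flt4 (9.18, 8.90, 7.66 and 7.55) was called lower there. Prox1 and Lyve1 lay below the floor on all 4 arrays, and Pdpn (12.29, 12.5, 11.67 and 12.47) was not called. Of the 5 heat shock genes Hspb1 (12.85, 13.16, 11.67 and 13.31) was called lower, and no fibroblast, leukocyte or epithelial marker was called. The part of these differences in the members' levels was not tested.

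On the array labelled Mical3, Fgf21 and Aldh1l2 were called lower than on both controls, 2 of 43 members, where 2.49% of the 12011 genes that could be called were lower. No member was called higher (1.38% of all genes). Aldh1l2, a mitochondrial folate enzyme, read 11.02, 10.57, 10.90 and 9.06, so that the array labelled Mical3 was 1.51 below the vector and 1.96 below the untreated level, and the other 3 lay within 0.45. Fgf21, with levels given above, was 2.61 and 1.80 lower there, and its level of 5.53 was just over the floor. Each of these genes had 1 probe set. The medians of the ATF4-type members were -0.38 relative to the vector and -0.05 relative to the untreated array, and those of the ER members 0.28 and -0.29. Of the other ATF4 targets Ddit4, an inhibitor of mTORC1, was called lower (9.61, 9.58, 10.32 and 8.52), as was Gpt2, and Creld1, a relative of Creld2 that was listed with the ER chaperones, was called higher (7.24, 6.75, 6.12 and 8.36). Markers of other cell types moved with this array too. Of the 8 fibroblast and mural markers Pdgfrb (10.28, 8.13, 10.71 and 3.55) and Col1a2 (14.49, 11.64, 14.06 and 6.19) were called lower than on both controls. Acta2 (13.67, 11.61, 13.8 and 14.49) and Dcn (12.36, 10.52, 12.27 and 12.79) had their highest level there, with no call. Pdgfra and Col1a1 lay between both controls. The epithelial marker Krt18 (5.85, 4.84, 6.63 and 7.41) was called higher. Flt4, 1 of the 4 lymphatic markers, was called lower as on the array labelled Mical2, and Pdpn was not called. The part of these markers in the members' levels was not tested.

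Set against each other, the 2 hairpin arrays differed for 3 of 43 members, all higher on the array labelled Mical2, where 3.81% of 11928 genes were higher and 3.72% lower. They were Aldh1l2 by 1.84, Atf5 by 1.24 and Fgf21 by 1.05, and no ER member was called. Of the 8 fibroblast and mural markers Pdgfra, Pdgfrb and Col1a2 were called higher on the array labelled Mical2. Col1a1 differed by 0.88 in the same direction, and Acta2 and Dcn by -0.69 and -0.52, with no call. Of the 5 heat shock genes Hspa1b (8.66, 8.78, 9.15 and 7.79) was called higher there and Hspb1 lower. The part of these markers in the members' differences was not tested. Medians over the ATF4-type and ER members were -0.07 and -0.09.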

How the data were processed

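Total RNA of SVEC4-10 cells was read on 4 arrays, 1 per group, each a pool of 3 biological replicates per the labels. The authors deposited log2 expression levels per probe set, made with RMA per the submitters' processing notes. For RMA the sources used here give no version or settings. Of 45101 probe sets, 34945 have 1 gene symbol in the platform annotation and 932 have several, which were left out with the unnamed ones. Symbols were updated by Entrez identifier through a RefSeq table (34741 matched). The values were not rescaled. Groups of 1 array allow no test, so genes were called by size (1 on the log2 scale, floor 5.41), and a hairpin array had to pass against both control arrays in 1 direction. The rule was tested on simulated data with shifts well over 2-fold in genes well above the floor, so calls near 2-fold or near the floor were not covered. All members were named, with the called genes of the pathway and marker lists and some others of these lists. Members, lists, roles and tests were chosen with earlier results of these data known, and ERSE-II and the printed windows after the values were seen. Alternatives were the fold, floor, probe set choice, control, a repeated quantile normalization and 16 added on the linear scale. The number of arrays limits precision. Computations used Python 3.11.15, numpy 2.4.6 and pandas 2.3.3, and figures matplotlib 3.10.9.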

Additional observations from a re-analysis of the deposited data

Results flagged for a closer look

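Some genes lay on opposite sides of both control arrays on the 2 hairpin arrays and differed by at least 1 between them. The difference between the hairpins was not tested, since each has 1 array. Atf5 was 1.24 higher on the array labelled Mical2 than on that labelled Mical3. Ddit4, which has 1 probe set, was 1.80 higher. Ero1b, an ER oxidase, had a difference of -1.14 (8.12, 8.29, 7.30 and 8.44 in the order used above), and its other 2 probe sets lay below the floor. Creld1 had a difference of -2.24.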

How the results depend on the processing

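No paired analysis was possible because each group has 1 array and the labels carry no replicate numbers. Over 84 alternative medians the largest shift was 0.20, and over 20 alternative values of the contrast between both arms it was 0.19, with its sign on each array the same throughout. Counts depended on the fold, and the share of all genes called in either direction is given with each. At 1.5-fold, 10 of 30 ATF4-type and 5 of 13 ER members passed between the vector and the untreated array (17.6% of all genes, with 6, 1 and 5.83% at 2-fold), 3 and 1 on the array labelled Mical2 against both controls (8.11%, with 0, 0 and 2.73% at 2-fold), 4 ATF4-type members on that labelled Mical3 (11%, with 2 and 3.87%), and 8 between the hairpin arrays (19.2%, with 3 and 7.53%). At 3-fold the ATF4-type counts were 3, 1 and 1 for the vector, the array labelled Mical3 and the hairpin arrays (1.65%, 1.36% and 3.14% of all genes). Against the vector array alone 10 ATF4-type members passed for each hairpin, with 1 and 2 ER members for Mical2 and Mical3 (10.7% and 11.8% of all genes). With the mean of both controls 2 and 5 ATF4-type members and 1 ER member each passed (5.3% and 7.22%). With the probe set of highest variance, 1 ATF4-type member passed on the array labelled Mical2, 1 ER member on that labelled Mical3, and 2 ER members on the vector array (3.43%, 5.29% and 7.89% of all genes), as did 2 ER members when probe sets were averaged per gene (4.57%). In an alternative added after seeing the data, 6 ATF4-type and 1 ER members differed on the vector array from the other 3 (2.8% of all genes). Without the untreated array 9 and 1 did (4.94%), and without either hairpin array 6 and 1 (3.64% and 3.89%). The 7 called members kept differences of 1.06 to 2.10 under 5 other probe set choices and scalings.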
